A study of Mus musculus with 8 samples.

Results

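Mitotic cell-cycle genes were examined in mouse embryonic fibroblast (MEF) cells exposed to RHPS4, a small molecule that binds and stabilizes G-quadruplex (G4) structures. The 38 genes were taken by name from a list of mitotic kinases, cyclins, checkpoint, kinetochore and spindle genes, and all 38 were found among the 24460 genes of the count tables. They all passed the filter on low counts, which left 14296 tested genes. No mitotic gene changed by more than 1.5-fold at an adjusted p under 0.01 at either dose. At 10 µM their mRNAs tended to be slightly lower than at 0 and 2 µM, by a median log2 fold change of -0.18 and -0.29, and Plk1 and Mki67 were the members with an adjusted p under 0.01 in both of these comparisons. The direction against 0 µM held for 35 of the 38 genes after TMM scaling and for 16 of them when libraries were scaled by their totals only.

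Total RNA of wild type MEFs, depleted of nuclear ribosomal RNA, was sequenced from cells given 0 µM (n = 3 libraries), 2 µM (n = 3) or 10 µM (n = 2) RHPS4. The exposure was 16 or 24 h, and the labels do not say which of these was used for the RNA. The labels also do not say whether libraries of 1 dose came from separate cultures, so the p-values measure the spread between these libraries, which may be technical. The cells were subconfluent and the protocol names no synchronization, so in this bulk RNA a lower mitotic mRNA level from fewer cells in mitosis and one from less mRNA in each cell cannot be told apart.

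Entry into mitosis is driven by the kinase CDK1 bound to B-type cyclins, and exit follows when the anaphase-promoting complex (APC/C) marks cyclin B and securin for destruction. The mRNAs of these genes rise together in late S phase and G2 and are kept low in resting cells. This rhythm is known to run through paired promoter elements, the cell-cycle genes homology region (CHR), which is bound by MuvB complexes with B-MYB, FOXM1 or the repressor DREAM, and CCAAT boxes bound by NF-Y.

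The libraries held 10455965 to 26688121 counts, so that 3 counts stood for 0.112 to 0.287 counts per 1000000 (CPM), and 82831 to 205633 counts per library fell on the 38 genes. Such floors cover counting error only. The first 0 µM library and the first 2 µM library were the shallowest. The share of counts from mtDNA features was 13.2 to 14.4% at 0 µM, 7.40 to 8.26% at 2 µM and 5.33 to 6.32% at 10 µM. The fibroblast markers Col1a2 (2698 to 3245 CPM) and Vim (3335 to 4265 CPM) were abundant in every library, whereas Thy1 stood at only 5.10 to 7.77 CPM. The 8 fibroblast markers summed to 12577 to 13111 CPM at 0 µM, 11306 to 11659 CPM at 2 µM and 10985 to 11573 CPM at 10 µM. Among them the mean of Col1a1 was 1081 CPM at 0 µM and 724 CPM at 10 µM, and that of Pdgfrb was 235 and 155 CPM. The 21 markers of other cell types summed to 19.1 to 21.3 CPM at 0 µM, 19.1 to 21.2 CPM at 2 µM and 27.0 to 29.2 CPM at 10 µM. Most of the difference lay in the tubulin gene Tubb3, with a mean of 2.79 CPM at 0 µM and 7.28 CPM at 10 µM, and the part of these markers in the results on mitotic genes was not tested. The muscle regulators Myod1 and Myog were at 0 in at least 1 library.

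All levels below are CPM after TMM scaling, which sets the libraries to the same level for most genes. In untreated cells the mitotic genes covered a wide range of levels per kilobase of exon, with a median of 28.7 CPM per kb. Top2a, the topoisomerase that untangles sister chromatids (chr11:98992943-99024189, GRCm38), was the highest with 146 ± 11.9 CPM per kb (SD, n = 3). It was followed by the proliferation marker Mki67 (chr7:135689784-135716361) with 116 ± 6.17 CPM per kb and cyclin A2, Ccna2 (chr3:36564865-36572150), with 103 ± 10.5 CPM per kb. Mki67 and Ccna2 did not differ beyond their spread. The lowest was Cdc25c, a phosphatase that removes inhibitory phosphates from CDK1, with 9.74 ± 0.945 CPM per kb. The lengths are of all annotated exons of a gene joined, so genes with long minor transcripts come out lower per kilobase. The members lie on 16 chromosomes, with at most 7 of them on 1 chromosome.

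Promoter windows of the RefSeq annotation (GRCm38.p6, from 250 bases before to 50 bases after the transcription start) were at hand for 31 of the 38 genes, in 33 windows, since Bub3 and Prc1 have 2 windows each. There was none for Incenp, Foxm1, Tpx2, Ccna2, Cdc25c, Aurkb and Kif20a. A CHR core, searched on both strands as TTTGAA or TTTAAA or else TTCGAA, was present in 29 of the 33 windows (87.9%, Wilson 95% interval 72.7 to 95.2%). The same letters were in 21.4% of the windows of all tested genes and in 28.8% of all promoters of the table. Without the 50 bases after the start, the share of the mitotic genes was 54.5%, beside 19.4% of the windows of tested genes. A CCAAT box, on either strand, was present in 25 of the 33 windows (75.8%, 59.0 to 87.2%), beside 37.8% of the windows of tested genes and 37.4% of all promoters. The 4 genes with a window and no CHR core in it were Mad2l1, Pttg1, Nuf2 and Nusap1. These shares describe the windows and were not tested.

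The promoters of 4 mitotic genes show how these elements are placed. They were chosen after the values were seen: Plk1, Mki67 and Kif4 stood among the members that were lowest at 10 µM relative to 0 µM, and the libraries of Ccnb2 overlapped between all doses. Each upstream sequence holds the 150 bases before the RefSeq start, 5′ to 3′ on the strand of the gene. For Kif4 this stretch lies inside the gene span of the GENCODE annotation, which begins at chrX:100625737. Capitals mark the CHR cores, the CCAAT boxes and their reverse complement ATTGG.
Plk1, chr7:122159285-122159434, plus strand: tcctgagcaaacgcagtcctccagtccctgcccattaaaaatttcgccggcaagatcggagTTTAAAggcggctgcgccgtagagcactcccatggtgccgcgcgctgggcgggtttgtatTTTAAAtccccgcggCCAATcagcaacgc
Mki67, chr7:135716380-135716529, minus strand: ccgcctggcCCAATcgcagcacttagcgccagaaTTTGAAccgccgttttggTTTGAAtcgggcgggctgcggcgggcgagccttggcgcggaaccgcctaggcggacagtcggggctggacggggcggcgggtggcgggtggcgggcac
Kif4, chrX:100625915-100626064, plus strand: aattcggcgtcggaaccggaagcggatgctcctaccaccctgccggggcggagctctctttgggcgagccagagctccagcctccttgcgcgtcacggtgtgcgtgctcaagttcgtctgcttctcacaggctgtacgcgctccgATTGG
Ccnb2, chr9:70421555-70421704, minus strand: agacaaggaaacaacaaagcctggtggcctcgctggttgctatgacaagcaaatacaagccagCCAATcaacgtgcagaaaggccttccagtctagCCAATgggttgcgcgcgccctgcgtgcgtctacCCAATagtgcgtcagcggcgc

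A CHR core also lies at the start or just after it in 3 of these genes, and is shown with 6 bases on both sides.
Plk1, chr7:122159459-122159476, plus strand: gccgcgTTTGAAttcggg
Kif4, chrX:100626078-100626095, plus strand: gatcaaTTTGAAacttgg
Ccnb2, chr9:70421539-70421556, minus strand: gcggtaTTTGAAtcgcgg

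Plk1 thus had 3 CHR cores in its window, 1 of them shortly before the CCAAT box, whereas Kif4 had 1 core downstream of the start. Ccnb2 had 2 CHR cores, 1 upstream of the printed stretch at position -167 and 1 just after the start, with 3 CCAAT boxes in a row between them. In Mki67, both cores lay upstream, at positions -116 and -98. The other patterns searched, also on both strands, were less frequent. A forkhead core (TGTTTA or TGTTTG, the second of which can overlap TTTGAA) was in 8 windows (24.2%, beside 20.3% of tested genes and 28.2% of all promoters). E2F sites (tttcccgc, tttggcgc, tttcgcgc, tttgccgc, ttcccgcc or ttggcgcc) were in 2 windows (6.06%, beside 7.42% and 4.45%), those of Cdk1 and Ccnb1. A G-quadruplex pattern, 4 runs of at least 3 G with 1 to 7 bases between them, was in 9 windows (27.3%, beside 27.3% and 18.6%). These belong to Anln, Birc5, Bub1, Bub3, Ccnb1, Mki67, Prc1 and Pttg1, and the pattern in Mki67 overlaps the end of the printed sequence.

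**Figure D1:**
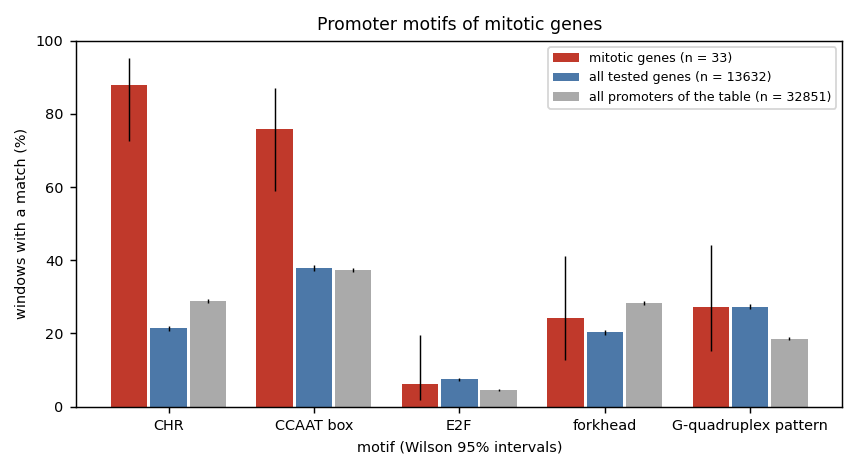
Share of promoter windows (250 bases before to 50 after the start) with at least 1 match to each motif, in percent, for the 33 windows of mitotic genes (red), all tested genes (blue) and all promoters of the table (grey), with Wilson 95% intervals as bars. The CHR share of the mitotic genes, 87.9%, and their CCAAT share, 75.8%, lie above both other sets, and the 3 further motifs have overlapping intervals with at least 1 of them.

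At 2 µM the mitotic mRNAs stayed close to the untreated level. The summed level of the 38 genes was 8269 ± 291 CPM (SD, n = 3) at 0 µM and 8586 ± 190 CPM (n = 3) at 2 µM. Of the members, 27 were higher and 11 lower, with a median log2 fold change of 0.07, beside -0.01 over all tested genes. Scaling by library totals gave 36 higher and 2 lower. By edgeR's quasi-likelihood test, 0 of 38 were called (adjusted p under 0.01 and fold over 1.5), beside 0.497% of all tested genes, and DESeq2 also called 0. With no minimum fold, 0 members were lower and 0 higher at an adjusted p under 0.01 (0.546% and 0.203% of all tested genes were). At an unadjusted p under 0.05, 4 were higher and 0 lower, beside 10.1% and 11.2% of all tested genes. Cdk1 had the highest log2 fold change, 0.23 ± 0.08 (SE, adjusted p = 0.148), and Cenpe, a kinesin that carries chromosomes to the spindle equator, the lowest with -0.15 ± 0.11 (adjusted p = 0.465). For all 38 genes the 95% interval of the fold change lay within 1.5-fold in either direction. In 3 genes, Cdk1, Ccnb1 and Mad2l1, all libraries at 2 µM lay above all at 0 µM (12.7% of all tested genes did), and in 1, Plk1, below (12.9%).

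At 10 µM the levels were lower. The summed level was 7164 ± 21.0 CPM (n = 2). Against 0 µM, 35 members were lower and 3 (Pttg1, Nusap1 and Spc25) higher, with a median of -0.18 beside 0.02 over all tested genes. Against 2 µM, 35 were lower and 3 (Ccnb2, Pttg1 and Nusap1) higher, with a median of -0.29 beside 0.03. The calls at adjusted p under 0.01 and fold over 1.5 were 0 in both comparisons, beside 3.09% and 5.51% of all tested genes, and DESeq2 called 0 as well. At an unadjusted p under 0.05, 17 members were lower and 0 higher against 0 µM, beside 14.6% and 14.8% of all tested genes. Against 2 µM, 23 were lower and 0 higher, beside 18.3% and 18.2%. With no minimum fold, 2 members were lower at an adjusted p under 0.01 against 0 µM (Plk1 and Mki67; 2.46% of all tested genes were). Against 2 µM there were 10 (Kif4, Birc5, Mki67, Ccna2, Mad2l1, Cdk1, Plk1, Bub3, Kif23 and Anln; 5.13% of all tested genes were). In neither comparison was a member higher at that level (2.77% and 5.63% of all tested genes were). All libraries at 10 µM lay below all at 0 µM in 20 members (20.0% of all tested genes did) and below all at 2 µM in 27 (24.9%). They lay above all at 0 µM in 0 members (22.9%) and above all at 2 µM in 1 (27.0%). The 95% intervals lay within 1.5-fold for 33 members against 0 µM and for 26 against 2 µM. The comparisons with 0 and 2 µM share the 2 libraries at 10 µM.

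The direction at 10 µM is relative to the other genes. Scaling by totals raised the log2 fold change of each member by 0.21 to 0.22 against 0 µM and by 0.13 to 0.14 against 2 µM. With library totals as the only scaling, the median of all tested genes moved from 0.02 to 0.23 against 0 µM and from 0.03 to 0.16 against 2 µM. The members were then 22 higher and 16 lower against 0 µM (median 0.03), and 11 higher and 27 lower against 2 µM (median -0.15). By the same test, Pttg1 (0.36, adjusted p = 0.0248), Nusap1 (0.30, adjusted p = 0.0264) and Spc25 (0.28, adjusted p = 0.0458) were then higher against 0 µM. Plk1 (-0.28, adjusted p = 0.0321) and Mki67 (-0.29, adjusted p = 0.0437) were lower. The members' median relative to that of all tested genes was -0.20 under both scalings against 0 µM and -0.32 under both against 2 µM. A change of scaling shifts all genes by nearly the same amount, so this difference had to stay nearly the same. As a share of all counts, the members took 0.771 to 0.792% at 0 µM, 0.845 to 0.873% at 2 µM and 0.781 to 0.786% at 10 µM. As a share of nuclear counts, they took 0.888 to 0.926%, 0.912 to 0.952% and 0.830 to 0.833%, so that the 10 µM libraries were the lowest only after the mtDNA counts were set aside. The calls over all genes against 0 µM were 279 higher and 163 lower after TMM scaling and 846 higher and 68 lower with totals only.

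Single libraries decided how many members passed. The counts of 2 and 10 became 5 and 17 without the first 0 µM library, which was the highest of its dose in 30 of 38 members and the lowest in 6. Against 0 µM the count was 2 without the first 10 µM library, 1 without the first or the third 2 µM library, and 0 when any of 4 others was left out, namely the last 2 libraries at 0 µM and the second at 2 µM and at 10 µM. Against 2 µM it was 0 without the first or second 2 µM or the second 10 µM library, 3 without the third 2 µM or the first 10 µM library, 5 without the third 0 µM library and 8 without the second. Without the first 0 µM library, the calls over all tested genes rose too. They went from 442 to 633 against 0 µM and from 788 to 884 against 2 µM. The members' median log2 fold change then moved from -0.18 to -0.15 against 0 µM and from -0.29 to -0.32 against 2 µM. Against 0 µM, 33 members were lower instead of 35, so the rise to 5 came with no larger median fall. Whether the members' counts moved more than those of all tested genes was not tested. The median coefficient of variation of the members was 8.15% at 0 µM, 3.67% at 2 µM and 6.50% at 10 µM. The coefficient was highest for Espl1 at 0 µM (22.1%).

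**Figure D2:**
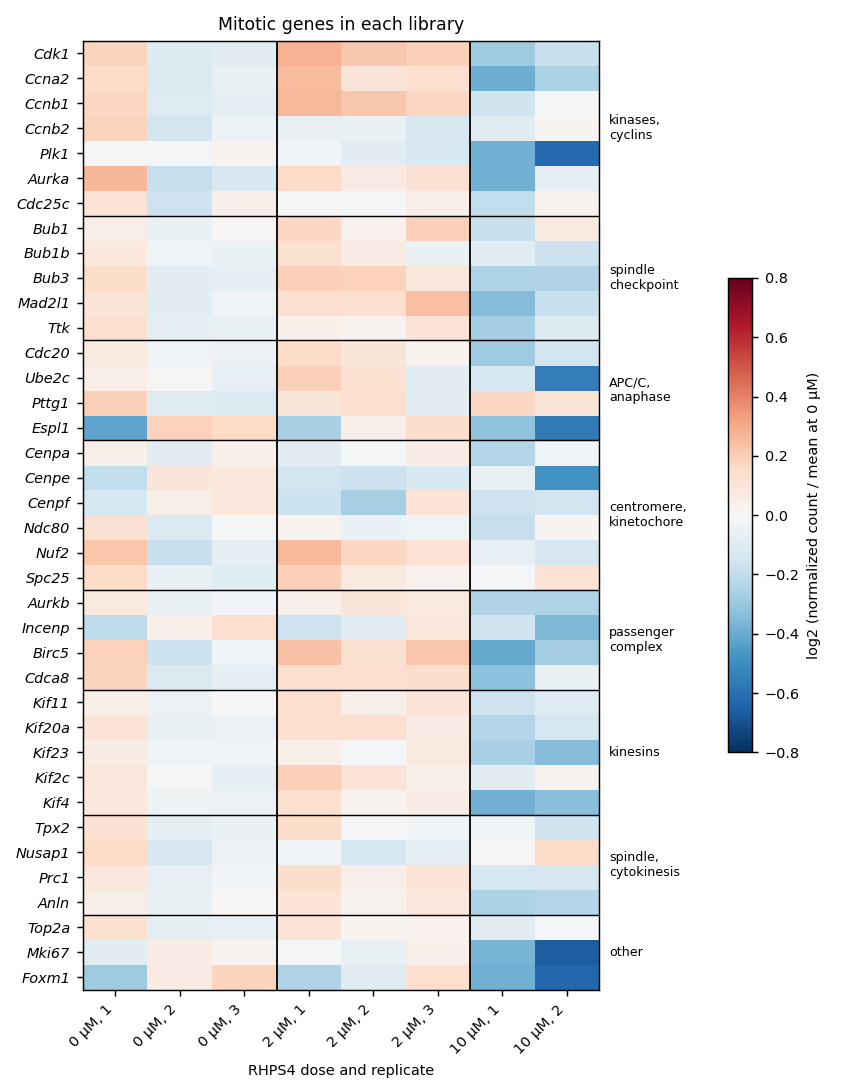
Heat map of the 38 mitotic genes (rows, grouped by role) in the 8 libraries (columns), colored by the log2 ratio of the TMM-scaled CPM to the mean at 0 µM. The 10 µM columns are mostly blue (35 of 38 genes lower by TMM scaling, 16 of 38 by library totals), and the first 0 µM column is above the others of its dose in 30 genes.

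The kinases and cyclins that drive entry into mitosis included Plk1, lower in both 10 µM libraries than in all others, and cyclin B2, which overlapped between all doses. Of these 7 genes, all were lower at 10 µM than at 0 µM by TMM scaling (3 by totals), with a median log2 fold change of -0.22. Cdk1, the kinase at the center of mitotic entry (chr10:69335146-69352938), stood at 236, 193 and 196 CPM at 0 µM, at 253, 242 and 238 CPM at 2 µM, and at 171 and 184 CPM at 10 µM. Its 2 µM libraries were all above and its 10 µM libraries all below the untreated ones. The log2 fold change was -0.46 ± 0.10 (adjusted p = 0.00627) between 10 and 2 µM and -0.23 ± 0.10 (adjusted p = 0.138) between 10 and 0 µM, or -0.32 and -0.01 by totals. Ccna2, the cyclin of S and G2 phase, had its means in the same order. It stood at 469, 388 and 403 CPM, then 500, 451 and 461 CPM, then 321 and 352 CPM. Its 0 and 2 µM libraries overlapped. All of its 10 µM values lay below all others. Its log2 fold change was -0.48 ± 0.10 against 2 µM (adjusted p = 0.00516) and -0.32 ± 0.10 against 0 µM (adjusted p = 0.0499). Totals gave -0.35 and -0.10. Ccnb1, the cyclin B1 that activates CDK1 at mitotic entry (chr13:100778650-100786570), stood at 212, 176 and 179 CPM at 0 µM, at 226, 219 and 212 CPM at 2 µM and at 169 and 187 CPM at 10 µM. Its 10 µM libraries overlapped with the untreated ones. The log2 fold change was 0.22 ± 0.08 (adjusted p = 0.167) at 2 µM and -0.08 ± 0.09 (adjusted p = 0.607) at 10 µM, where totals gave 0.14. Cyclin B2, Ccnb2, did not follow, with 143, 115 and 123 CPM, 122, 123 and 116 CPM, and 119 and 129 CPM. The 95% interval of its log2 fold change at 10 µM ran from -0.24 to 0.18 against 0 µM.

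Plk1, a kinase of centrosome maturation, the spindle and cytokinesis (chr7:122159439-122169873), varied little among untreated libraries, with 57.4 ± 0.932 CPM. It stood at 57.0, 56.7 and 58.4 CPM at 0 µM, at 56.6, 54.1 and 52.8 CPM at 2 µM, and at 44.0 and 37.3 CPM at 10 µM. Both 10 µM libraries lay well below the other 6. The log2 fold change was -0.50 ± 0.09 against 0 µM (adjusted p = 0.0042) and -0.42 ± 0.09 against 2 µM (adjusted p = 0.00642), or -0.28 and -0.29 by totals. Without the second 10 µM library it was -0.41 against 0 µM (adjusted p = 0.0477), and without the first it was -0.65 (adjusted p = 0.00535). Aurka, the centrosomal Aurora kinase, had a log2 fold change of -0.22 ± 0.13 (adjusted p = 0.308) and Cdc25c one of -0.08 ± 0.10 (adjusted p = 0.66) against 0 µM, and that of Cdc25c was 0.14 by totals. Cdc25c stood at 51.8, 42.8 and 49.2 CPM, at 48.0, 47.4 and 49.8 CPM, and at 41.8 and 48.9 CPM, with overlap between all doses.

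The spindle assembly checkpoint delays anaphase until every kinetochore is attached. Its 5 genes were all higher at 2 µM and all lower at 10 µM than at 0 µM by TMM scaling (medians 0.13 and -0.18), and 2 of them, Mad2l1 and Bub3, had an adjusted p under 0.01 between 10 and 2 µM. By totals, Bub1, Bub1b and Ttk were instead higher at 10 µM than at 0 µM, by 0.03 to 0.17. Mad2l1, which holds the APC/C activator CDC20 inactive, stood at 102, 89.2 and 92.9 CPM at 0 µM, at 104, 103 and 112 CPM at 2 µM, and at 74.4 and 83.5 CPM at 10 µM. The 3 doses did not overlap, and the log2 fold change from 2 to 10 µM was -0.43 ± 0.09 (adjusted p = 0.00554). By totals it was -0.30, and the value at 10 against 0 µM was -0.04. Bub3, which brings BUB1 and BUBR1 to the kinetochore, stood at 161, 137 and 138 CPM, at 166, 165 and 155 CPM, and at 122 and 123 CPM. Its values at 0 and 2 µM overlapped and those at 10 µM lay below both, with a log2 fold change of -0.40 ± 0.09 against 2 µM (adjusted p = 0.00759) and -0.24 ± 0.09 against 0 µM (adjusted p = 0.0872), or -0.27 and -0.03 by totals. Bub1, Bub1b and the kinase Ttk (MPS1) had log2 fold changes of -0.18, -0.18 and -0.25 against 2 µM, with adjusted p values of 0.18, 0.142 and 0.0669.

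Of the 4 genes of APC/C function and anaphase, 3 were lower at 10 µM and securin was not. Cdc20, the APC/C activator, had a log2 fold change of -0.21 ± 0.08 against 0 µM (adjusted p = 0.1; near 0 by totals), and Ube2c, the ubiquitin-conjugating enzyme of the APC/C, one of -0.33 ± 0.12 (adjusted p = 0.094). The 2 libraries at 10 µM differed for Ube2c, with 112 and 83.8 CPM beside 118 to 128 CPM at 0 µM. Espl1, the protease separase that cuts cohesin, had 73.3, 112 and 110 CPM at 0 µM, 82.1, 101 and 108 CPM at 2 µM and 78.8 and 66.3 CPM at 10 µM. The first 0 µM library was thus as low as the 10 µM libraries, and the log2 fold change of -0.45 ± 0.17 (adjusted p = 0.113) became -0.63 (adjusted p = 0.00446) without it. The value was -0.61 without the first 10 µM library and -0.36 without the second. A block for the replicate number gave -0.33 (adjusted p = 0.215). Pttg1, the securin that holds separase inactive, had the highest log2 fold change against 0 µM, 0.14 ± 0.11 (adjusted p = 0.413). By totals it was 0.36.

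Of the 6 centromere and kinetochore genes, none had an adjusted p under 0.05 in any comparison with all libraries. Of the 14296 tested genes, 216 were higher and 379 lower at that level at 2 against 0 µM. At 10 µM, 974 were higher and 1017 lower against 0 µM, and 1646 and 1700 against 2 µM. Whether none of 6 genes departs from these numbers was not tested. The median log2 fold change of the 6 genes at 10 µM was -0.11 against 0 µM and -0.08 against 2 µM. The centromeric histone Cenpa had -0.13 ± 0.09 against 0 µM and the outer kinetochore genes of the NDC80 complex, Ndc80, Nuf2 and Spc25, had -0.07 ± 0.09, -0.09 ± 0.11 and 0.06 ± 0.10. All 6 intervals lay within 1.5-fold in each of the 3 comparisons. The first 0 µM library was again apart for Cenpe, with 272 CPM beside 334 and 332 CPM in the others. Its log2 fold change at 10 against 0 µM, -0.26 with all libraries, was -0.37 (adjusted p = 0.0374) without that library. It was -0.52 (adjusted p = 0.0323) without the first 10 µM library and -0.09 (adjusted p = 0.734) without the second.

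In the chromosomal passenger complex, which corrects attachments and later directs cytokinesis, all 4 genes were lower at 10 µM, with medians of -0.25 against 0 µM and -0.32 against 2 µM (by totals Cdca8 was 0.04 higher against 0 µM). Birc5, the survivin subunit that targets the complex to chromosomes (chr11:117849251-117855743), had the lowest log2 fold change of all members between 10 and 2 µM. It stood at 107, 83.7 and 92.1 CPM at 0 µM, at 111, 103 and 110 CPM at 2 µM, and at 70.8 and 77.6 CPM at 10 µM. The 10 µM values lay below all others, by -0.54 ± 0.10 against 2 µM (adjusted p = 0.00409) and -0.34 ± 0.10 against 0 µM (adjusted p = 0.0493). By totals these were -0.40 and -0.12. The catalytic subunit Aurkb had -0.32 ± 0.07 against 2 µM (adjusted p = 0.0112) and the scaffold Incenp -0.21 ± 0.11 (adjusted p = 0.215).

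The kinesins are microtubule motors. The 5 Kif genes were all higher at 2 µM (0.04 to 0.11) and lower at 10 µM than at 0 µM (-0.36 to -0.03) by TMM scaling, while by totals Kif11, Kif20a and Kif2c were higher at 10 µM (0.03 to 0.19). Cenpe, also a kinesin, was counted with the kinetochore genes. Kif4, a chromokinesin that compacts chromosomes and shapes the midzone (chrX:100625737-100727214), stood at 176, 161 and 160 CPM at 0 µM, at 181, 169 and 172 CPM at 2 µM and at 127 and 131 CPM at 10 µM. Its 10 µM libraries were close to each other and below the rest. The log2 fold change was -0.43 ± 0.08 against 2 µM (adjusted p = 0.00268) and -0.36 ± 0.08 against 0 µM (adjusted p = 0.0111). By totals these were -0.30 and -0.14. Kif23, a motor of the centralspindlin complex of cytokinesis, stood at 184, 172 and 172 CPM, at 183, 174 and 186 CPM, and at 147 and 138 CPM. It did not differ between 0 and 2 µM beyond the spread. Its log2 fold change was -0.34 ± 0.07 against 2 µM (adjusted p = 0.00801) and -0.30 ± 0.07 against 0 µM (adjusted p = 0.0218). Totals gave -0.21 and -0.08. Kif2c, a microtubule depolymerase, was at 114, 106 and 102 CPM untreated and at 101 and 109 CPM at 10 µM, with overlap.

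Anln, the anillin of the contractile ring, was the one of the 4 genes of the spindle, midzone and cytokinesis with an adjusted p under 0.01. It stood at 358, 332 and 349 CPM at 0 µM, at 374, 353 and 368 CPM at 2 µM, and at 291 and 294 CPM at 10 µM. The 10 µM libraries lay below all others, with -0.32 ± 0.07 against 2 µM (adjusted p = 0.00931) and -0.24 ± 0.07 against 0 µM (adjusted p = 0.0456). By totals these were -0.19 and -0.03 (adjusted p = 0.792 for the latter). Nusap1, which bundles spindle microtubules, was the exception of the list. Its libraries at 10 µM, with 184 and 204 CPM, lay above all those at 2 µM (181, 167 and 174 CPM), as in 27.0% of all tested genes. It was the only member to do so, with a log2 fold change of 0.16 ± 0.09 (adjusted p = 0.258), or 0.29 by totals. Tpx2 and Prc1, which build the spindle and its midzone, had -0.10 ± 0.09 and -0.14 ± 0.08 against 0 µM, or 0.12 and 0.08 by totals.

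The remaining 3 genes diverged. Mki67, the Ki-67 protein that coats mitotic chromosomes, stood at 1094, 1211 and 1187 CPM at 0 µM, at 1156, 1115 and 1199 CPM at 2 µM, and at 900 and 737 CPM at 10 µM. Its 0 and 2 µM libraries overlapped (log2 fold change -0.01 ± 0.09), and both 10 µM libraries lay below. The log2 fold change was -0.51 ± 0.10 against 0 µM (adjusted p = 0.00698) and -0.50 ± 0.10 against 2 µM (adjusted p = 0.00492), or -0.29 and -0.36 by totals. Without the second 10 µM library it was -0.40 against 0 µM (adjusted p = 0.0671).

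Foxm1, the transcription factor of late cell-cycle genes, stood at 103, 131 and 142 CPM at 0 µM, at 106, 117 and 137 CPM at 2 µM and at 95.7 and 81.0 CPM at 10 µM. Its log2 fold change against 0 µM was as low as that of Mki67, -0.51, but with a wider SE of 0.14 (adjusted p = 0.0388). Without the first 0 µM library it was -0.65 (adjusted p = 0.00354). It was -0.66 without the first 10 µM library and -0.42 without the second. A block for the replicate number gave -0.39 (adjusted p = 0.0693). With all libraries, totals gave -0.29. Top2a, by contrast, was at 1435, 1247 and 1253 CPM, at 1415, 1330 and 1341 CPM, and at 1235 and 1302 CPM. Its values at 10 µM lay below all those at 2 µM and overlapped with the untreated ones, and the 95% interval at 10 µM ran from -0.24 to 0.15 against 0 µM.

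**Figure D3:**
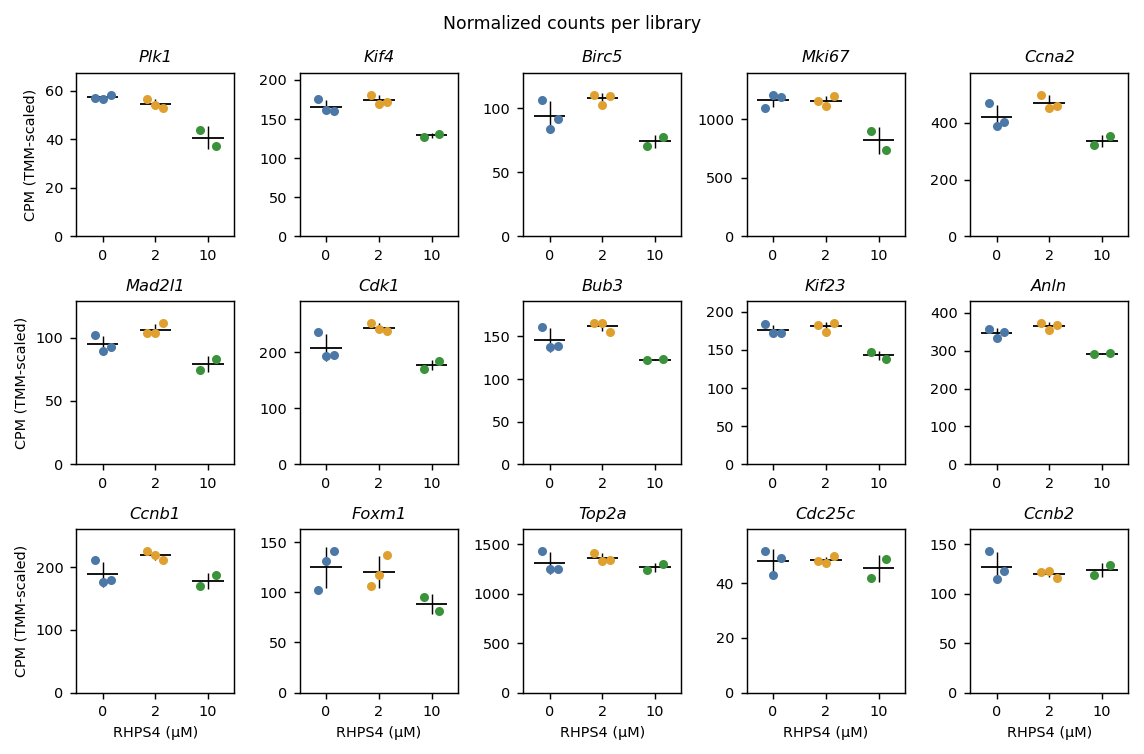
TMM-scaled CPM (y axes from 0) of 15 mitotic genes at 0, 2 and 10 µM RHPS4, with 1 point per library, a bar at the mean and a vertical line of 1 SD (n = 3, 3 and 2). The 10 µM libraries of Plk1 and Mki67 lay below all others of these genes. The values of Cdk1, Mad2l1 and Plk1 did not overlap between any 2 doses, and those of Ccnb2 and Cdc25c overlapped between all doses. How many of all tested genes had no overlap between any 2 doses was not counted.

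**Figure D4:**
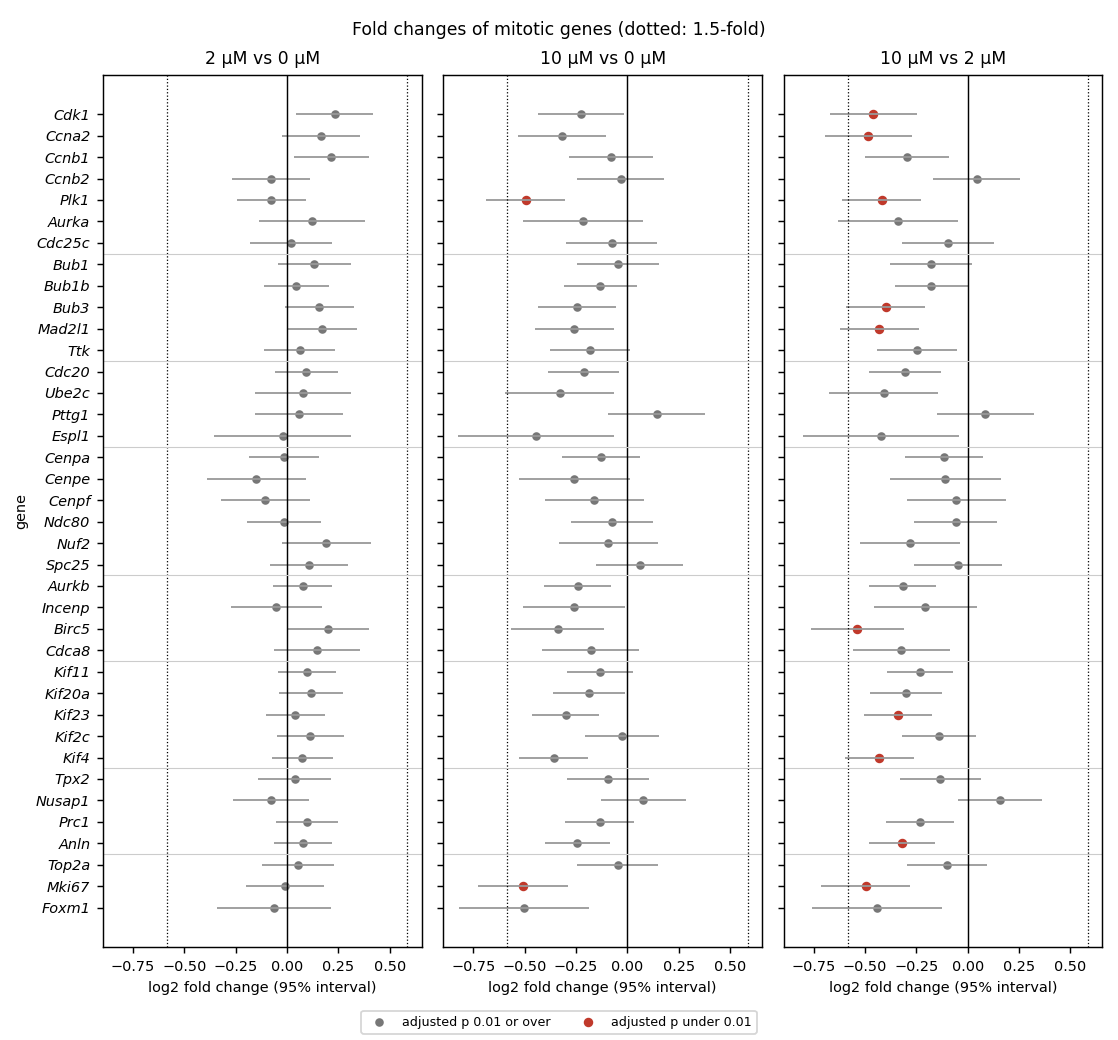
Log2 fold changes (points) with 95% intervals (lines) of the 38 mitotic genes in the 3 comparisons, with dotted lines at 1.5-fold and red points for an adjusted p under 0.01. There are 0 red points for 2 against 0 µM, 2 for 10 against 0 µM and 10 for 10 against 2 µM, and none of the 12 lies beyond 1.5-fold.

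The fold changes can be set beside the promoter elements as a description, with no test. At 10 against 0 µM the 8 genes with a G-quadruplex pattern in the window had a median of -0.19 and the 23 without one -0.18. The 27 genes with a CHR core had a median of -0.18 and the 4 without one -0.01, a group that holds both Mad2l1 (-0.26) and Pttg1 (0.14). Ccnb2, with the row of CCAAT boxes printed above, had -0.03, whereas Plk1 and Mki67, which carry both elements too, had -0.50 and -0.51.

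Other genes of the cell cycle, 143 in 8 lists, were all tested. Of these, 98 were higher and 45 lower at 2 µM (median 0.06), 33 higher and 110 lower at 10 against 0 µM (median -0.12), and 32 higher and 111 lower at 10 against 2 µM (median -0.16). At 2 µM 0 were called by edgeR, with 18 higher and 7 lower at an unadjusted p under 0.05 (10.1% and 11.2% of all tested genes were), while DESeq2 called 1. At 10 µM against 0 µM 3 were called, all lower. Of the 14296 tested genes, 163 were called lower and 279 higher (3.09% together). With library totals as the only scaling, 1 related gene was called. Against 2 µM 8 of the 143 were called by TMM scaling, 7 lower and 1 higher. Of all tested genes, 227 were called lower and 561 higher (5.51% together), so the total of 8 was near that share.

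The 3 genes called against 0 µM were 1 each of the G1/S list (Ccnd1), the CDK1 regulators (Ccnf) and the DREAM, MuvB and NF-Y list (Mybl2). Against 2 µM, 3 of the 8 were of the G1/S list (Ccnd1, Ccne1 and Ccne2), 2 were CDK1 regulators (Ccnf and Cdc25a), 2 were of the DREAM, MuvB and NF-Y list (Mybl2 and Tfdp1) and 1 was a spindle gene (Psrc1). Ccnd1, cyclin D1 of G1 phase, stood at 416, 423 and 422 CPM at 0 µM, at 447, 470 and 442 CPM at 2 µM, and at 273 and 268 CPM at 10 µM, and fell by 0.64 on the log2 scale against 0 µM (adjusted p = 0.000237). Ccnf, the cyclin F of a ubiquitin ligase, fell by 0.62 (adjusted p = 0.000541) and Mybl2, the B-MYB partner of MuvB, fell by 0.60 (adjusted p = 0.004). The cyclins E, which bind CDK2 at the start of S phase, had the lowest values against 2 µM, with Ccne2 at 99.4, 88.0 and 93.0 CPM at 2 µM and at 43.0 and 47.8 CPM at 10 µM. Its untreated libraries, with 77.6, 60.2 and 62.3 CPM, lay between. Against 2 µM Ccne2 fell by 1.04 (adjusted p = 0.000165), Ccne1 fell by 0.89, Cdc25a fell by 0.73 and the E2F partner Tfdp1 fell by 0.73. Psrc1, a microtubule regulator, was the called gene that rose, by 0.64 (adjusted p = 0.00079).

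By list, the G1/S cyclins, kinases and E2F genes had the lowest median at 10 against 0 µM, -0.34. Of these, 11 of 12 were lower, 3 of them at an adjusted p under 0.01. Over all tested genes, 47.9% were lower and 2.46% were lower at an adjusted p under 0.01. The CDK1 regulators followed with -0.24 (10 of 12 lower), and the condensin and cohesin genes had -0.16 (16 of 18 lower). The DREAM, MuvB and NF-Y genes had -0.14, the further spindle and cytokinesis genes -0.13, and the APC/C subunits and regulators -0.07. The kinetochore and centromere genes, 33 in number, had -0.05, with 21 lower and 12 higher. The CDK inhibitors had a median of 0.02 against 0 µM and 0.35 against 2 µM. Among them Cdkn1a, the p53 target p21, was measured at only 0.79 to 5.28 CPM, so its log2 fold change of -1.41 ± 0.33 at 2 µM (adjusted p = 0.0398) rests on 9 to 133 counts per library. All of these medians are by TMM scaling, and library totals shift the median of all tested genes at 10 against 0 µM as given above.

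**Figure D5:**
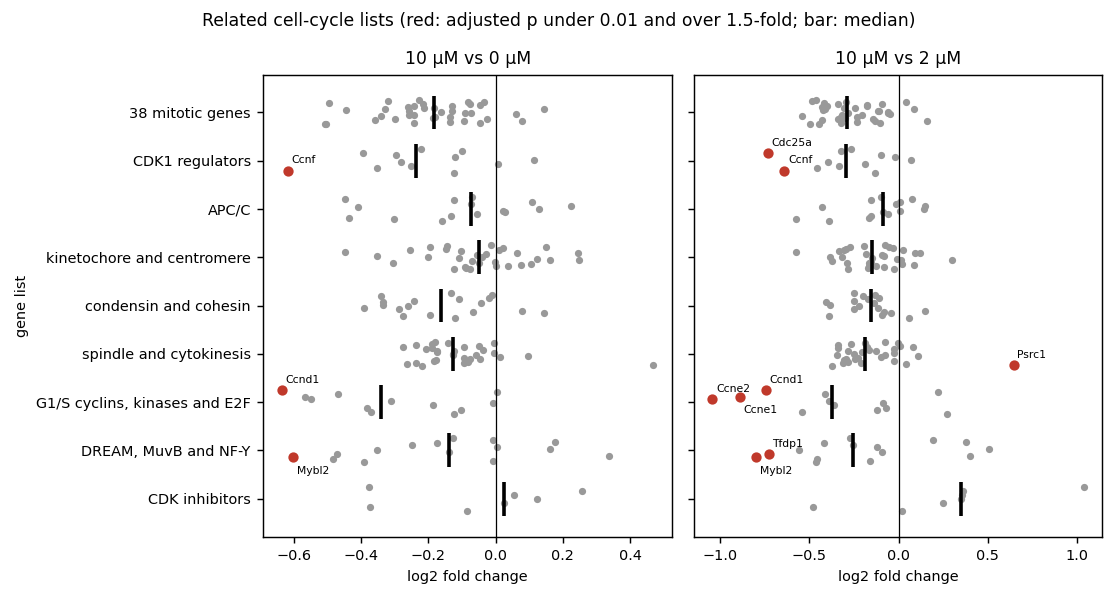
Log2 fold changes of the 38 mitotic genes and of 8 related lists (points; bars mark medians) for 10 against 0 µM and 10 against 2 µM, with red points for an adjusted p under 0.01 and a fold over 1.5. The G1/S list has the lowest median in both panels, -0.34 and -0.37 by TMM scaling, and there are 3 red points on the left and 8 on the right.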

How the data were processed

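The authors depleted nuclear ribosomal RNA, sequenced TruSeq stranded libraries with 75 bp paired reads and counted uniquely mapped fragments per gene. The submitters' processing notes name FastQC, Trim Galore, cutadapt, STAR 2.5.2a, featureCounts and mm10. The annotation and the strand setting of the counting are not given in the sources used here. The authors deposited raw whole-number counts per gene for each library.

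Differences between doses came from 1 fit of all 8 libraries by dose in edgeR 4.0.16 under R 4.3.3, which used TMM factors, filterByExpr and the quasi-likelihood F test (glmQLFTest). P-values were adjusted by Benjamini and Hochberg's method over the 14296 tested genes. Called genes had to pass both 0.01 in adjusted p and 1.5 in fold. Standard errors were derived from the F statistic. Total counts ran from 10455965 to 26688121 per library. The closest pair of libraries differed by more than sampling noise (chi-square of 3.23 per degree of freedom), so each was used as its own replicate. Alternatives were RLE factors, TMM over nuclear genes, library totals, other filters on low counts, DESeq2 1.42.0, other thresholds, a block for the replicate number, a fit restricted to the compared groups, and omission of each library. Leaving out both shallow libraries was added after the data were seen. Gene positions and exon lengths are from GENCODE vM21 (GRCm38), and promoter sequences from RefSeq (GRCm38.p6), searched with Python 3.11.15.

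The 38 genes, the 143 related genes in 8 lists (CDK1 regulators, APC/C, kinetochore and centromere, condensin and cohesin, spindle and cytokinesis, G1/S, DREAM with MuvB and NF-Y, CDK inhibitors), the markers and the tests were chosen with earlier results of these data known. Named in full were the 10 members with the smallest p in any comparison, Cdk1, Ccnb1, Mki67, Foxm1, and the highest and lowest per kilobase. Of the related genes, those called were named, at most 4 per list. Other genes were added after their values were seen, such as Ccnb2, Espl1, Nusap1 and Cdkn1a. Simulated counts with known changes were used to test the scripts.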

Additional observations from a re-analysis of the deposited data

How the results depend on the processing

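The count of called mitotic genes stayed at 0 at 2 µM under every alternative run. At 10 against 0 µM it was 0 to 2 with a library left out (2 without the first 0 µM or without the first 10 µM library), 2 without both shallow libraries and 2 with no minimum fold. At 10 against 2 µM it was 0 to 2 with a library left out (2 without the first 10 µM library) and 10 with no minimum fold. The 2 members with an adjusted p under 0.01 at 10 against 0 µM became 0 with library totals, 0 with only the groups compared, 5 by DESeq2, 5 without both shallow libraries and 0 to 5 with a library left out. The 10 against 2 µM became 0 with library totals and 0 to 17 with a library left out, and DESeq2 gave 15. The related genes called at 2 µM, 0, became 1 by DESeq2, 1 at an adjusted p under 0.05 and 0 to 2 with a library left out, 2 without the first 0 µM library. The 3 at 10 against 0 µM became 1 with library totals, 5 with no filter on low counts, 5 by DESeq2, 6 without both shallow libraries, 8 with no minimum fold and 1 to 4 with a library left out, 1 without the second 10 µM library. The 8 against 2 µM became 22 with no minimum fold and 8 to 13 with a library left out, 13 without the first 10 µM library. The cause was not tested. Leaving out a library at 10 µM assumes that the lone library left varies like the other groups.

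With the replicate number as a block, 0 members had an adjusted p under 0.01 at 10 against 0 µM and 5 at 10 against 2 µM. The numbers were not taken as a pairing. Deviations of same-numbered libraries at 0 and 2 µM correlated with r of 0.20, 0.08 and 0.16. Among the libraries of these doses, each correlated best with its own number. Same-numbered libraries had r of -0.15 to -0.02 with 10 µM. The deviations of the 2 libraries at 10 µM mirror each other, so the r with 10 µM cannot decide on a pairing. The lowest count of any member in any library was 446 (Spc25), and there were 2 libraries at 10 µM.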
